A study of Bos taurus with 18 samples.

Results

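Synonymous coding sites are single-nucleotide polymorphisms (SNPs) at which both alleles encode the same amino acid. They were taken as the rows of the deposited SNP table whose annotated effect was synonymous coding, which gave 31439 of 992284 sites, in 9987 gene models. The table was made from poly(A) RNA sequencing of the pituitary and the hypothalamus of 9 Angus cattle, all female and none in heat, with 3 cows at 6 months (weaned shortly before), 3 at 18 months (sexually mature) and 3 at 30 months (after a first calf). Each of the 6 combinations of tissue and age therefore held 3 libraries, and each library came from 1 cow. The labels do not say which libraries came from the same cow. The called genotypes paired them: over SNP sites read at least 20 times, each pituitary library was between 99.3% and 99.7% identical to 1 hypothalamus library of the same age, against at most 66.7% with any other library. The 9 pairs are called 6-month cow 1 and so on, after the replicate number of their libraries.

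The genetic code is degenerate, mostly at the last codon position, where a change among A, G, C and T often leaves the amino acid as it was. A transition exchanges A with G or C with T, and a transversion exchanges a purine (A or G) with a pyrimidine (C or T). At many last positions only a transition is silent, so synonymous sites are enriched in transitions by the code itself. Because a cow's 2 copies of a gene differ by the alleles of a heterozygous site, the reads at such a site in RNA show how much each copy contributes to the transcripts. The share of reads with the reference allele is 50% when both copies contribute alike and both alleles are mapped alike.

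Of the synonymous sites, 30194 (96.0%) lay at the last codon position and 1245 at a first position. The letters of the codon change matched the table's alleles directly at 16176 sites and as the complement at 15263, and no gene model had sites of both kinds, so each change could be read on the coding strand. All 31439 codon changes kept the amino acid under the standard code. The gene models carry no symbols in these tables, and their numbered names are given as deposited. Coordinates are as the table gives them, on chromosomes named as NCBI names those of the UMD cattle assembly. A genome of that build was not used here, so the codon is the only sequence shown, with the changed base in capitals.

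Synonymous sites held 26517 transitions and 4922 transversions, a ratio of 5.39. Transitions made up 84.3% of them (95% Wilson interval 83.9 to 84.7%), compared with 68.4% of 18950 nonsynonymous sites, which change the amino acid (67.7 to 69.0%), and 71.2% of 38698 sites in 3′ untranslated regions (UTRs) (70.7 to 71.6%). Over all SNP sites of the table the share was 72.8%, and in introns it was 72.6%. These intervals cover counting error only, and neighbouring sites are not independent. The share was largest where the code permits nothing else: all 10362 sites at last codon positions with 2 silent bases were transitions, as were all 921 first-position sites of leucine, while all 324 first-position sites of arginine were transversions. At the 18797 last codon positions where any base is silent, the code does not choose the change, and there 76.6% were transitions (76.0 to 77.2%), a ratio of 3.27. Isoleucine, whose codons tolerate 3 of the bases at the last codon position, had a ratio of 4.25 over 1035 sites.

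**Figure D1:**
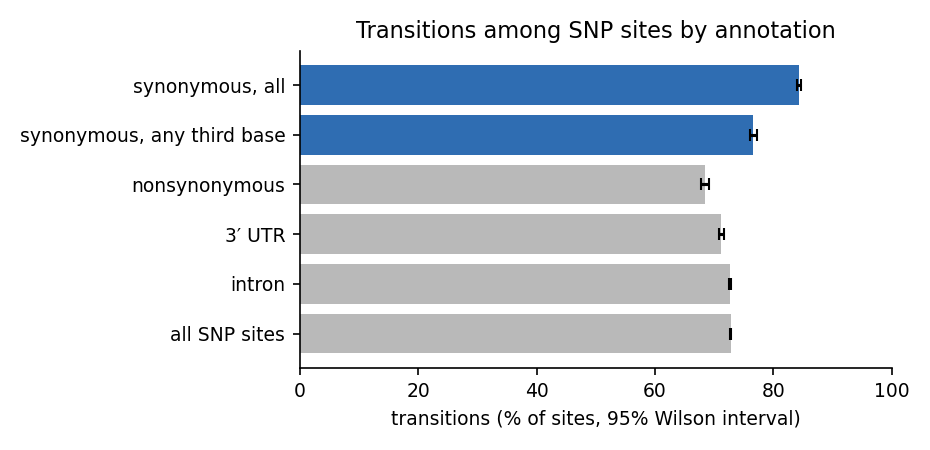
Percent of SNP sites that are transitions (horizontal axis, from 0) in synonymous sites (blue: all of them, and those at last codon positions where any base is silent) and in other classes of the table (grey), with 95% Wilson intervals as whiskers. Synonymous sites reached 84.3%, and 76.6% where the code does not choose the change, both above the 68.4% of nonsynonymous and 71.2% of 3′ UTR sites.

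Compared within each cow over the sites where it carried the alternative allele, the share of transitions was 85.2% at synonymous and 68.9% at nonsynonymous sites. The difference of 16.2 percentage points (SD 0.309, n = 9 cows) was positive in 9 of 9 cows (exact two-sided sign-flip test, p = 0.00391, the smallest that 9 cows allow; adjusted p = 0.00586 over 6 comparisons of classes). Against 3′ UTR sites, the difference was 13.7 points (SD 0.388, 9 of 9 cows, exact sign-flip adjusted p = 0.00586). The cows share most of these sites, so the test covers only the spread between these 9 animals. The code itself raises the share of transitions at synonymous sites. The direction of both differences was thus largely set by how the classes are defined, and the p-values add no support to it.

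Read on the coding strand, the commonest change was C to T, at 9221 sites, followed by T to C at 6587, G to A at 6287 and A to G at 4422. The 8 kinds of transversion ranged from 229 sites (A to T) to 927 (C to A). Changes away from G or C thus outnumbered the reverse ones for both kinds of transition. At last codon positions where any base is silent, G to A led with 4499 sites (23.9%), before C to T with 4015 (21.4%). In 12482 of these codons the second base is C, and there G to A, which takes away a C followed by G, made up 26.97% of the changes, against 18.0% for A to G. G to A was also the commoner of the pair with T as the second base (21.5% and 15.6%) and with G (13.3% and 10.1%). These shares were not adjusted for how many codons end in G or A.

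The 5 commonest codon changes all turned C or G into T or A. The change ccG/ccA of proline stood at 1040 sites, and its reverse at 688. The aspartate change gaC/gaT followed with 956 sites against 685 for its reverse. The alanine change gcG/gcA had 886 (reverse 629), and the threonine change acG/acA had 826 (reverse 565). The alanine change gcC/gcT also had 826, with 561 for its reverse. The codons ccG, gcG and acG each hold a C followed by G. Among amino acids, proline had the most sites, 3707 (11.8%), and cysteine the fewest, 599 (1.91%). Methionine and tryptophan, with a single codon each, had none.

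Sites were spread over many genes. A single synonymous site was seen in 3767 gene models, 2 to 5 in 4790, 6 to 10 in 1070 and more than 10 in 360, with a median of 2. The most were in gene29951 on chromosome 29 (sites from 1965965 to 2605066), with 74 synonymous sites, 63 of them transitions, beside 23 nonsynonymous ones, over a gene model of 17608 bases. Next came gene12639 on chromosome 10 with 53 (15 nonsynonymous, gene model of 30830 bases) and gene25947 on chromosome 23 with 48 (9 nonsynonymous, 31657 bases). These counts were not adjusted for the length or the depth of a gene's transcript. Across the 30 chromosomes, the share of transitions ran from 80.9% to 87.8%, and the number of synonymous sites per nonsynonymous site from 1.37 to 2.03, with 1.66 over all.

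A library had a genotype at 26424 to 28185 of the 31439 sites with a median depth of 20 to 26 reads, except the 18-month pituitary replicate 3, with 15847 sites and a median depth of 8. Its total gene count, 33941804, lay within the range of all libraries, 28724861 to 38036840. All 18 libraries had a genotype at 13918 sites. Depths of homozygous reference calls do not behave as plain read counts: 18419 such calls were listed with 7 reads against 3036 with 6, and 8603 with 20 against 1327 with 19, while heterozygous calls numbered 3615 and 3643 at 7 and 6 reads, and 2223 and 2314 at 20 and 19. At a depth of at least 20, reads of the other allele were listed for 0.0489% of 134907 homozygous reference calls and for 3.40% of 47239 homozygous alternative ones. A minimum depth may thus act unequally on the genotypes. The allele frequencies below were counted again with other minima and moved, as given in the last section. How much of that comes from the listed depths was not tested.

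The frequency of the alternative allele was counted over 16013 synonymous sites at which each of the 9 cows had a genotype from at least 10 reads in at least 1 tissue. Only 2 of these sites had no copy of the alternative allele, 15251 were variable among the cows and 760 (4.75%) were homozygous for it in all 9. The largest class held 1 copy among the 18 chromosomes, with 3678 sites (22.97%), followed by 1914 sites with 2 copies and 1431 with 3. The number fell to 320 sites with 17 copies. The mean frequency was 34.4%. Heterozygotes made up 31.4% of genotypes, against 29.6% computed from the allele frequencies with a correction for 18 chromosomes, and 16 sites were heterozygous in all 9 cows. The table lists sites where at least 1 library differed from the reference, so sites at which all 18 chromosomes carry the reference allele are left out by its making.

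**Figure D2:**
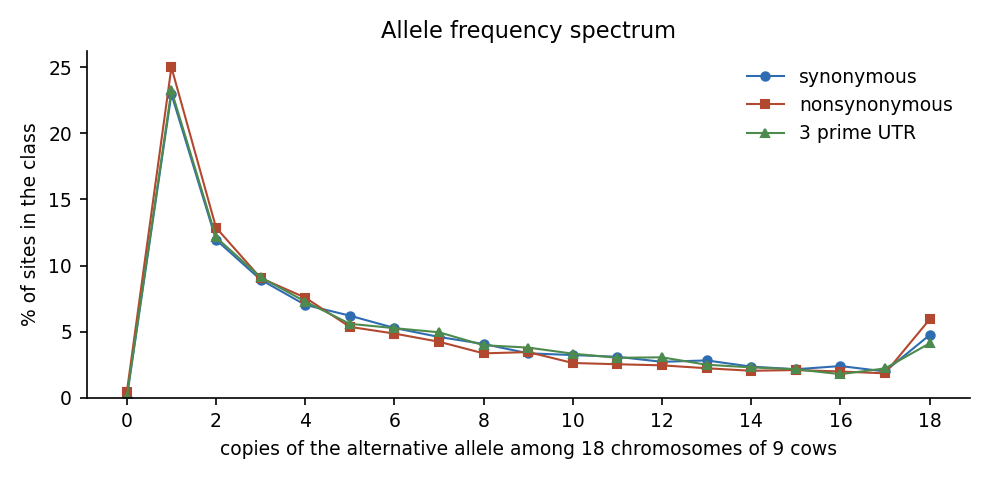
Percent of the sites of a class (vertical axis) by the number of copies of the alternative allele among the 18 chromosomes of 9 cows (horizontal axis), for synonymous, nonsynonymous and 3′ UTR sites with all 9 cows genotyped. All classes peak at 1 copy, with 22.97% of synonymous and 24.997% of nonsynonymous sites, and rise again at 18 copies, with 4.75% and 5.93%.

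On average over the sites genotyped in a cow, the alternative allele was more frequent at synonymous than at nonsynonymous sites. Averaged within each cow, its frequency was 35.1% at synonymous and 33.9% at nonsynonymous sites. The difference was 1.15 points (SD 0.434), positive in 9 of 9 cows (exact sign-flip test, p = 0.00391, adjusted p = 0.00586). Against 3′ UTR sites it was 0.985 points (SD 0.530), positive in 8 of 9 cows (exact sign-flip test, p = 0.00781, adjusted p = 0.00938). The cows share most of these sites, so both tests cover only the spread between these 9 cows. Sites fixed for the alternative allele were fewer at synonymous (4.75%) than at nonsynonymous sites (5.93%).

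The kind of base change went with the frequency. At variable sites the mean frequency of the alternative allele was 27.2% for C to T and 27.2% for G to A, compared with 37.6% for T to C and 36.4% for A to G. Sites fixed for the alternative allele followed the same order, with 2.39% and 2.65% for the first pair and 8.11% and 8.12% for the second. The contrast was as wide where a C precedes: 26.9% for ncG to ncA and 38.5% for ncA to ncG. Transitions and transversions had mean frequencies of 31.1% and 31.1%. The reference allele is that of the sequenced reference animal, so these are frequencies of the non-reference allele, and which allele is older was not tested.

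One cow of the youngest group stood apart. The 6-month cow 2 was heterozygous at 40.6% of the 16013 sites, while the 8 other cows ranged from 28.46% to 31.97%. It alone carried the alternative allele at 1627 sites, in 752 gene models, against 134 to 410 sites for each other cow, and it held 44.1% of all sites with 1 copy. At 1623 of its 1627 private sites it was heterozygous, and 85.4% of them were transitions. Over 78892 SNP sites of all classes with 9 genotypes, the same cow was heterozygous at 39.05%, against 28.1% to 31.3%, and had 7382 private sites against 691 to 2129.

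Its private sites were gathered on certain chromosomes. They made up 33.5% of the sites on chromosome 25 (329 of 981), 30.1% on chromosome 14 (119 of 396), 24.03% on chromosome 18 (241 of 1003) and 23.7% on chromosome 6 (131 of 552). On chromosomes 17 and 20 there were 0 among 592 and 228 sites. The autosomes fell into separate ranges: 11 held from 12.7% to 33.5%, with 1443 private sites, and the other 18 held at most 4.53%, with 157. On those 11 autosomes the cow was heterozygous at 48.9% of 6794 sites, where the 8 other cows ranged from 24.8% to 29.9%. On the other 18 it was heterozygous at 34.5% of 9033 sites, beside 30.19% to 33.998% in the others. The autosomes were split by its private sites, nearly all of them heterozygous in this cow and carried by no other. The wider contrast on the 11 thus follows in part from the split. Among 229 windows of 10 megabases with at least 20 sites, 44 had over 10% private sites and held 88.8% of them, up to 72.0% of a window, and 127 had none. In the other cows a single autosome passed 10% (chromosome 29 in 30-month cow 3, at 10.4%). The chromosomes and windows were looked at after this cow had been seen to differ, and these values are a description of 1 animal. Without it, sites with 1 copy were 17.7% of 14384, against 23.88% to 25.02% when any other cow was left out.

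**Figure D3:**
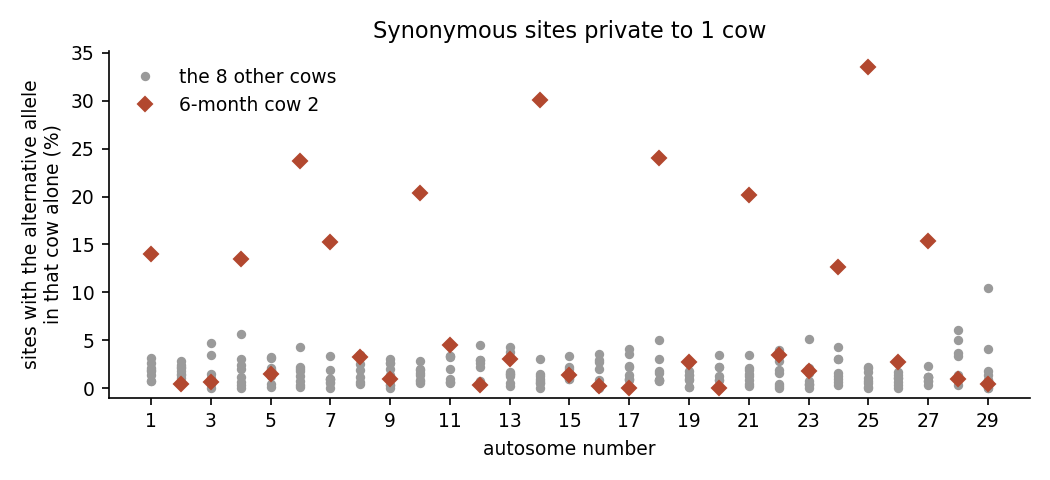
Percent of synonymous sites with 9 genotypes at which the alternative allele was carried by 1 cow alone (vertical axis), by autosome (horizontal axis). Red diamonds are 6-month cow 2, which ranges from 0 to 33.5%; grey points are the 8 other cows, at 10.4% or less.

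Both tissues of a cow gave nearly the same genotypes. Over 113168 comparisons of a cow and a site read at least 20 times in both tissues, 243 genotypes differed, which is between 13 and 70 per cow, and 0 were opposite homozygotes. Agreement per cow was between 99.5% and 99.9%. The libraries had been paired by their genotypes at sites of this depth, so this agreement was largely set by the pairing. The cow with 70 differences was 6-month cow 1, in which 55 sites were heterozygous in the hypothalamus and homozygous in the pituitary, against 6 to 15 such sites in each other cow. At these 55 sites the second allele made up a median of 11.8% of the hypothalamus reads, with a range from 4.26% to 52.7%.

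The 4 summary measures of a library did not separate the tissues. Transitions made up 84.85% ± 0.246 (SD, n = 9) of the non-reference sites in the pituitary, with a range from 84.5% to 85.3%, and a mean of 84.82% in the hypothalamus. The difference was 0.0310 points (SD 0.243), with 5 of 9 cows higher in the pituitary (exact sign-flip test, p = 0.707, adjusted p = 0.973 over 4 measures). Heterozygotes made up 58.5% of non-reference sites in the pituitary and 59.3% in the hypothalamus (exact sign-flip test, p = 0.586, adjusted p = 0.973). The 18-month pituitary replicate 3, the shallow library, was the lowest at 51.9%, with 59.02% in the hypothalamus of the same cow, and without that cow the difference turned from -0.749 to 0.0496 points. Across ages, none of the 4 measures differed beyond the spread between cows (exact permutation test over all assignments of cows to ages, p from 0.450 to 0.629, adjusted p = 0.629). For transitions the means, from the youngest to the oldest group, were 84.8%, 84.9% and 84.7%.

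Reference shares were read at 86268 heterozygous calls of at least 20 reads. The median share lay between 51.5% and 52.4% in all 18 libraries, above 50% in each. The pituitary mean of these medians was 51.83% and the hypothalamus mean 51.80% (difference 0.0273 points, SD 0.281, 3 of 9 cows higher in the pituitary, exact sign-flip test, p = 0.777, adjusted p = 0.973). Shares outside 30 to 70% made up 5.10% of calls in the pituitary and 5.11% in the hypothalamus (p = 0.973 in the same exact test, adjusted p = 0.973), with the highest value, 6.67%, in the shallow 18-month pituitary replicate 3. Neither measure differed between tissues beyond the spread between cows. The difference between tissues in the share outside 30 to 70% was, in the same order of ages, -0.579, 0.846 and -0.309 points, and a test of whether it changed with age gave p = 0.05 (exact permutation test, adjusted p = 0.143). The 18-month value includes the shallow pituitary replicate 3, at 6.67% against 4.79% in the hypothalamus of the same cow. In the other 18-month cows the pituitary had 4.72% against 4.31%, and 5.54% against 5.29%. For transitions the same differences were 0.185, 0.131 and -0.222 points (exact permutation test, p = 0.0714, adjusted p = 0.143).

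The excess of the reference allele was smaller at synonymous than at 3′ UTR sites. Averaged over both tissues, the median share was 51.8% at synonymous and 52.2% at 3′ UTR sites, a difference of -0.408 points (SD 0.182), lower in 9 of 9 cows (exact sign-flip test, p = 0.00391, adjusted p = 0.00586). Against nonsynonymous sites the difference was -0.0893 points (SD 0.256), lower in 6 of 9 cows (exact sign-flip test, p = 0.316, adjusted p = 0.316). The share also moved with other variants close by. With no other SNP site within 50 bases, the median over libraries was 51.6%, with 1 it was 52.1%, and with 2 or more it was 52.3%. In a comparison added after the data had been seen, the last exceeded the first by 0.924 points (SD over cows 0.667), in 18 of 18 libraries (exact sign-flip test over 9 cows, p = 0.00391). Many sites are shared between cows, so each of these sign-flip tests covers only the spread between the 9 cows.

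Fewer single shares strayed at higher depth, up to a point. At 20 to 29 reads, 11.5% of calls lay outside 30 to 70%, and their variance was 1.55 times that of counting alone. From 100 to under 200 reads 1.24% did, and from 200 reads on 1.94%, with variances 2.41 and 4.24 times that of counting. At lower depths the mean reference share was 34.6% at 3 reads, 44.2% at 5, 49.4% at 8 and 51.01% at 10, against 52.1% at 20 to 29.

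Within a cow, both tissues moved in part together. At 36475 combinations of a cow and a site heterozygous in both tissues, the correlation of the shares across sites lay between 0.176 and 0.313 per cow. The sites share the cow's libraries, and part of the spread is counting error, so this is a description. The variance of the difference between tissues was 1.22 to 1.51 times that expected from counting. The share was over 70% in both tissues at 285 combinations and under 30% in both at 74, and it was on opposite sides of that range at 10.

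Single sites were tested for a share other than 50% with limma, on the log2 ratio of reference to alternative reads (0.5 read added to each) in cows heterozygous in both tissues at 20 or more reads. At least 3 such cows were found at 6109 of the 31439 synonymous sites (19.4%). There were 1 or 2 such cows at 8732 sites and none at 16598. The model was fitted over all 27111 SNP sites that passed the same rule, with Benjamini-Hochberg adjustment over them. Of the synonymous sites, 223 (3.65%) differed from 50% at an adjusted p under 0.05, in 181 gene models, while over all SNP sites tested 6.87% did. With a robust prior and a depth trend in the same model, 374 synonymous sites were called. With a minimum of 10 reads 194 were, 143 of them among the 223. The share was 5.37% of nonsynonymous, 6.57% of 3′ UTR and 11.7% of intronic sites tested. Synonymous sites thus gave fewer calls than the background, a difference that has no test of its own.

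The reference allele was the higher one at 183 of the 223 sites and the alternative at 40. In all SNP sites, 5.76% were called with the reference higher and 1.11% with the alternative higher. With each library centred on its own median, which shifted the median log2 ratio of the tested synonymous sites from 0.10 to -0.02, there were 168 calls, 103 of them (61.3%) with the reference higher, against 82.1% before. Both tissues were on the same side of 50% at all 223 sites. The value tested was the mean of both tissues, so this agreement was largely set by the calls. Converted to a share, the mean log2 ratio lay beyond 30 to 70% at 50 of the called sites, and within 40 to 60% at 55. Another SNP site lay within 50 bases of 36.8% of the called and 24.4% of all tested sites, and its part in the calls was not tested. The median FPKM (fragments per kilobase of gene model, scaled to the mapped fragments of the library) of their gene models was 13.2 for called and 13.3 for tested sites.

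The 5 sites with the highest ratio rest on read counts that lack the alternative allele in some libraries. At gene26432 (chromosome 23, position 28102091, tcG/tcA), 6-month cow 2 was called heterozygous in both tissues with 201 reference and 0 alternative reads in the pituitary, and 210 and 196 in the hypothalamus. The 30-month cow 1 showed 152 and 177 reads in the pituitary and 143 and 0 in the hypothalamus. The same pattern, with shares from 38.9% to 58.3% in some libraries and from 96.1% to 100% in the rest, was seen at gene30776 on chromosome 29, gene26394 on chromosome 23, gene25222 on chromosome 22 and gene8850 on chromosome 7. Of all heterozygous calls of at least 20 reads, 98 had under 5% of reads from an allele, and in 95 of these it was the alternative allele that was low. Their reference reads were 1.05 times (median) those of the other heterozygous calls at the same site, and their depth 0.568 times. The alternative reads are thus listed as few or none while the reference reads stand at their usual number, and these 5 ratios are not read as allelic expression. Without such calls, a choice made after seeing them, 235 synonymous sites were called, 218 of them among the 223, with 190 to the reference side.

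The next 5 sites on the reference side had more even values across the libraries tested. At gene19942 (chromosome 17, position 42806720, caA/caG, a glutamine codon) all 9 cows were heterozygous. The reference share ran from 78.4% to 84.4% in the 9 pituitary libraries and from 79.2% to 89.1% in the 9 hypothalamus libraries, with 38 reads in the shallow 18-month pituitary replicate 3 and more in the others. No library came near 50%, and the log2 ratio was 2.29 (SE 0.0844, limma adjusted p = 4.87e-08). Sites heterozygous in every genotyped cow were 10 of the 223 called and 55 of the 6109 tested. Without such sites 204 were called, and gene19942 was among those left out. Whether its share reflects the 2 copies of 1 gene was not tested. At gene27022 (chromosome 23, position 50393229, ccT/ccC), 3 cows were heterozygous, with 91.0%, 92.2% and 89.5% in the pituitary and 91.0%, 91.7% and 92.1% in the hypothalamus. These 6 shares lay within 3 points of each other (log2 ratio 3.36, SE 0.144, limma adjusted p = 4.70e-05). At this site 221 to 299 reference reads were listed in the heterozygous cows, against 23 to 41 in the homozygous reference ones. Cows homozygous for the alternative allele had 65 to 125 reads. Depths of homozygous reference calls do not behave as plain read counts. Whether the share at gene27022 reflects the 2 copies of 1 gene was not tested. At gene1814 (chromosome 2, position 86441350, aaG/aaA), the 10 libraries of 5 heterozygous cows ran from 78.2% to 86.6% (log2 ratio 2.27, limma adjusted p = 1.11e-05). At gene5788 (chromosome 5, position 30729241, tcC/tcT) the shares of 3 cows lay between 80.0% and 88.6%, from 34 to 58 reads a library. In 3 further cows 1 tissue of gene5788 was called heterozygous and the other homozygous for the reference allele, for example 6-month cow 1 with 52 and 7 reads in the hypothalamus and 49 and 0 in the pituitary. At gene15490 (chromosome 13, position 17793650, taC/taT) they lay between 84.8% and 88.2% except in the pituitary of 30-month cow 3, at 66.7%, and the tissues of 1 further cow disagreed in genotype.

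On the alternative side, gene29445 (chromosome 27, position 41866721, tcC/tcT) had the lowest reference shares, from 7.46% to 15.8% in the 6 libraries of the 3 cows tested (log2 ratio -2.83, SE 0.208, limma adjusted p = 0.000542). The genotype at gene29445 differed between the tissues in 5 of the 8 cows called in both, in 4 of them heterozygous against homozygous alternative, and heterozygous calls left out of the test reached 25.5%. At gene10657 (chromosome 8, position 70940200, acC/acA) the 7 cows tested ranged from 8.50% to 36.6% in the pituitary and from 12.1% to 36.1% in the hypothalamus (log2 ratio -1.77, SE 0.210, limma adjusted p = 0.000548). In the 2 other cows the tissues disagreed. Over the 20 named sites, 6 had at least 1 cow whose tissues disagreed in genotype. The other 8 sites named on that side, in gene15423, gene26372, gene4557, gene16139, gene8351, gene29793, gene23722 and gene13772, had log2 ratios from -1.58 to -1.03. At gene4557 (chromosome 4, position 33050777) all 9 cows were heterozygous in at least 1 tissue, and the call was lost when cows heterozygous in only 1 tissue were let in (log2 ratio -0.32, limma adjusted p = 0.829).

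**Figure D4:**
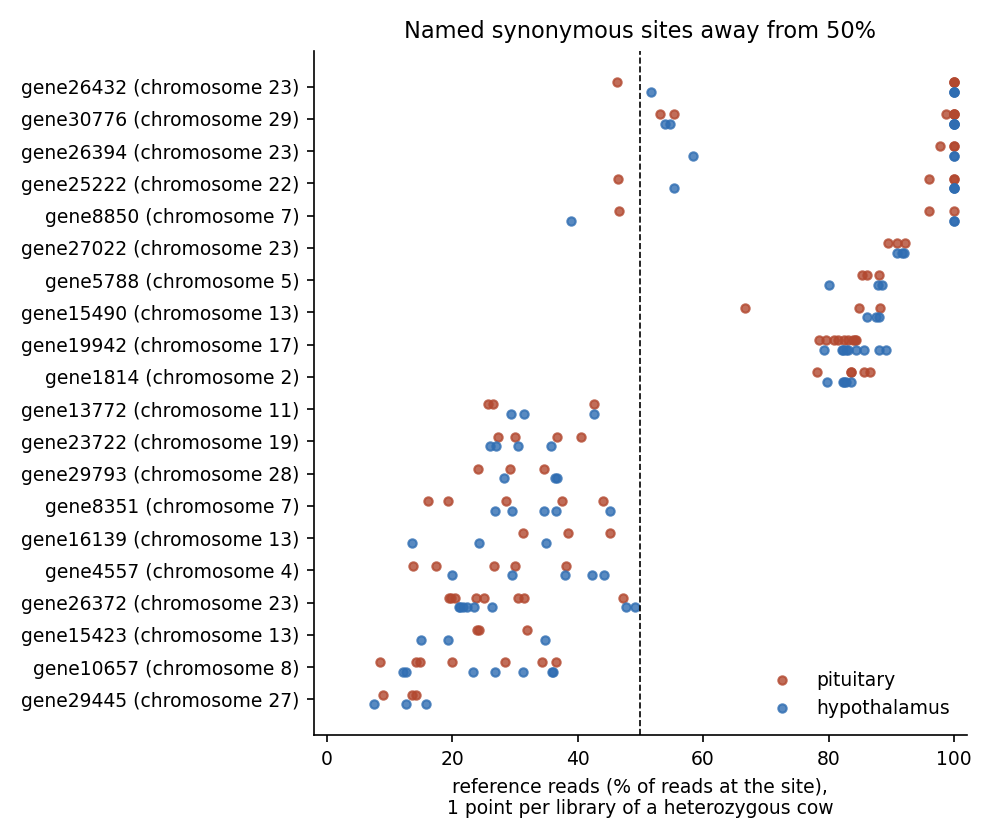
Reference reads as a percent of reads (horizontal axis) at the 20 synonymous sites with the largest log2 ratios in each direction (rows, at most 1 per gene model), 1 point per library of a cow heterozygous in both tissues; red is pituitary, blue is hypothalamus, and the dashed line is 50%. The top 5 rows mix shares of 38.9% to 58.3% with shares of 96.1% or more, while gene19942 keeps 78.4% to 89.1% in all 18 libraries.

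Most called gene models had a single called site, and 29 had 2 or more. The most were in gene26372 on chromosome 23, where 7 of 11 tested sites were called between positions 27332067 and 27333642. At 6 of them the reference allele was higher, with shares of the reads pooled over cows from 72.2% to 81.0% in either tissue. At the last (position 27333375, aaA/aaG) it was lower, with 28.97% in the pituitary and 29.5% in the hypothalamus. At that site 18-month cow 1 had 47.2% and 47.7%, and 6-month cow 1 had 30.6% in the pituitary and 49.1% in the hypothalamus, while the other cows lay between 19.5% and 31.5%. Next came gene19605 on chromosome 16, with 4 of 5 tested sites called, all with the reference higher. Sites of a gene share reads and haplotypes and are not independent. Chromosome 23 held 22 of the 223 called sites, in 14 gene models, which is 7.01% of the 314 tested there. Over all chromosomes, 3.65% of the tested synonymous sites and 6.87% of all tested SNP sites were called. The 22 include the sites of gene26432 and gene26394, whose ratios are not read as allelic expression. Chromosome 23 was the highest of 30 chromosomes, whose shares of tested synonymous sites called started at 1.01%, and it was picked out after these values were seen.

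No synonymous site was called with a reference share that differed between the tissues (0 of 6109, and 0 of 27111 over all SNP sites, a background of 0%, limma, smallest adjusted p = 0.973). Without adjustment 279 sites had p under 0.05, beside 305.45 from chance alone if no site differs, and so had 4.94% of all SNP sites. The median standard error of a site's difference was 0.28 on the log2 scale. Only cows called heterozygous in both tissues entered, so a cow with 1 tissue called homozygous was left out. The lack of calls therefore does not show that the shares were equal. The 3 sites of smallest p, which did not pass, were in gene24232, gene12244 and gene30734. At gene24232 (chromosome 20, position 62725352, ccT/ccG) the reference shares of 3 cows were 45.5%, 39.02% and 44.8% in the pituitary and 75.0%, 66.7% and 82.6% in the hypothalamus, from 20 to 41 reads each. The ranges did not overlap, and the log2 difference was -1.92 (SE 0.296, limma adjusted p = 0.973).

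Female cells silence 1 of both X chromosomes, and in a tissue where more cells keep the same copy active, heterozygous X-linked sites stray from 50%. There were 487 synonymous sites on the X chromosome. With each call thinned to 20 reads, the mean distance of the share from 50% was 12.3 points on the X chromosome and 10.1 on the autosomes. The difference was 2.13 points (SD 3.23), positive in 6 of 9 cows, and did not pass the threshold (exact sign-flip test, p = 0.0664). This comparison was added after the data had been seen. The difference moved with the cow left out, from 1.25 points without 30-month cow 1 to 2.55 without 6-month cow 2. Without the latter it passed (exact sign-flip test, p = 0.0391). Over all SNP sites it was 2.73 (exact sign-flip test, p = 0.00391).

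The cows ranged more widely on the X chromosome, with far fewer sites, than on the autosomes. In 30-month cow 1 the mean distance was 19.4 points, against 10.2 on its autosomes, and 27.03% of X-linked calls in the pituitary and 47.5% in the hypothalamus lay outside 30 to 70%. At its 36 X-linked sites heterozygous in both tissues, in 24 gene models, the median share was 62.6% in the pituitary and 66.7% in the hypothalamus. The reference allele was higher in both at 25 of these sites and lower in both at 8, and the correlation across them was 0.885, against 0.295 over the autosomal sites of the same cow. In 18-month cow 1, with 42 such sites, the distance was 14.4 points and the correlation 0.821. In the 7 other cows the distance was between 8.92 and 13.4 points and the correlation between -0.0182 and 0.491. Sites on 1 chromosome share haplotypes, so these correlations are descriptions of each cow.

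**Figure D5:**
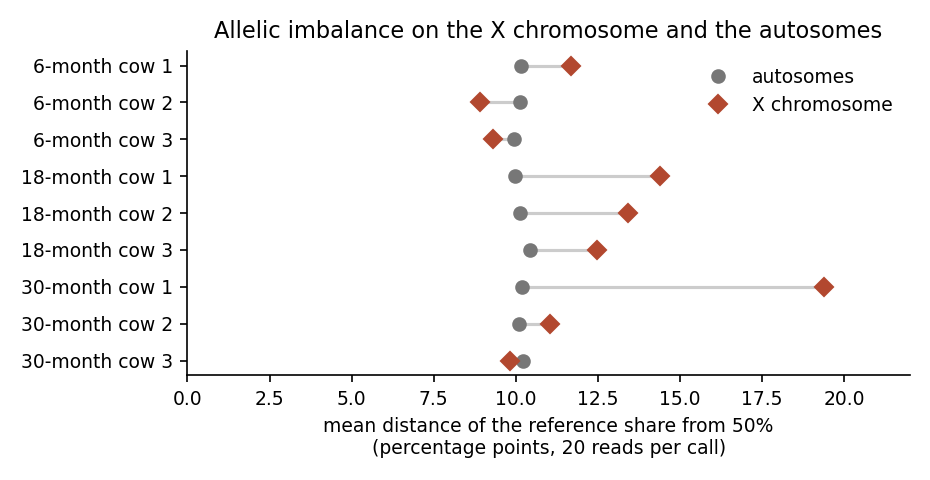
Mean distance of the reference share from 50% (horizontal axis, percentage points, each heterozygous call thinned to 20 reads and both tissues averaged) at synonymous sites, for each of the 9 cows (rows). Grey circles, the autosomes, lie between 9.93 and 10.4; red diamonds, the X chromosome, run from 8.92 to 19.4.

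The 5 synonymous sites with the highest total depth over the 18 libraries were named by rule. At gene6845 (chromosome 5, position 104238750, acC/acT), gene15389 (chromosome 13, position 3445953, atT/atC) and gene2108 (chromosome 2, position 119486922, ggT/ggC), every library with a call was homozygous for the alternative allele, with total depths of 14334, 12464 and 9946 reads. At gene14808 (chromosome 12, position 18134577, gcA/gcG) 12 libraries were heterozygous, with 53.7% reference reads over them (3997 of the reference and 3452 of the alternative allele) and a range from 49.9% to 58.4%. At gene27101 (chromosome 24, position 2558388, acT/acG) 16 libraries were heterozygous, with 53.4% of reference reads overall and from 49.1% to 99.4%, the last being another call with almost no alternative reads listed.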

How the data were processed

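Genotype, depth and allele read counts per library were taken from the deposited SNP table, whose unit is a count of reads per the file headers. Total gene read counts and FPKM come from the deposited gene tables, in which the authors scaled FPKM by gene model length and mapped fragments, per the file headers. Gene model lengths come from the same deposited table. HISAT2, StringTie, GATK and DESeq are named in the submitters' processing notes without role or version, and the aligner's settings, the variant filters and the genome build are not given in the sources used here. Insertions and deletions were not used.

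A cow's genotype was taken from calls of at least 10 reads in either tissue, and discordant calls were dropped. Shares were read at heterozygous calls of at least 20 reads. Library measures were compared with exact two-sided sign-flip tests over 9 cows (512 patterns) and exact permutation tests over ages. Site tests used limma 3.58.1 in R 4.3.3 (pseudocount 0.5 read, at least 3 cows), fitted over 27111 SNP sites. The fits were also run on simulated data, in which many of the smaller simulated differences were not called, more so between tissues. Sites were named by rule: up to 10 a direction by ratio, at most 1 per gene model, the 5 deepest, the 3 gene models with the most sites, the 5 commonest codon changes, and the amino acids with the most and fewest sites. The sites, lists and tests were chosen with earlier results of these data known. Replicates are separate cows. The labels do not number them, so replicate numbers follow accession order, and pairs rest on the genotypes. Intervals cover counting error only, and reads without molecular identifiers are not independent molecules. Alternatives changed depth minima, pseudocount, cows required, genotype rule, centring, variance model and pairing, and left out each cow.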

Additional observations from a re-analysis of the deposited data

Results flagged for a closer look

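In 27 sets of 9 values (libraries of a tissue, or cows), 12 values lay farther from the rest than a gap test at 95% allows. Chance flags about 1 set in 20, and the sets share libraries and cows, so the values below are not independent.

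The 18-month pituitary replicate 3 accounts for 4 of them. It had calls at 15847 synonymous sites, where the 8 other pituitary libraries had 26954 to 27941, with 6796 non-reference sites (others 12300 to 15611), 1664 heterozygous calls of at least 20 reads (others 4385 to 6317) and 6.67% of shares outside 30 to 70% (others 4.41% to 5.54%).

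The 6-month cow 2 accounts for 5. Its hypothalamus library had 15997 non-reference sites (others 12044 to 13715) and 6955 heterozygous calls of at least 20 reads (others 3857 to 5406). The cow was heterozygous at 40.6% of sites with 9 genotypes, carried the alternative allele at a mean frequency of 38.8% (others 33.4% to 34.5%) and had 1627 private sites (others 134 to 410).

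The 6-month cow 1 accounts for the last 3. Its tissues disagreed at 179 genotypes of at least 10 reads (others 41 to 94), and at 70 of at least 20 reads (others 13 to 32), of which 55 were heterozygous in the hypothalamus alone (others 6 to 15). The cause of these 3 patterns was not tested.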

How the results depend on the processing

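The tissue measures, all far from the threshold, changed sign with small choices. The share outside 30 to 70% was 0.0514 points higher in the pituitary over sites called in all 18 libraries, heterozygotes were 0.0565 points higher at a depth of at least 10 and 0.280 at 50, and the transition difference was -0.0649 at 50. Leaving out each cow in turn, the differences ran from -0.0175 to 0.0806 for transitions, -0.947 to 0.0496 for heterozygotes, -0.0321 to 0.0646 for the median share and -0.250 to 0.0996 for the share outside. Without the pairing by cow (no replicate block), p for the 4 measures was between 0.670 and 0.963 (exact permutation test), and 0 sites were called as different between tissues. Sites with 1 copy were 23.9% at a genotype depth of 20, 26.5% with none and 22.1% from the hypothalamus alone, and 17.7% to 25.02% without each cow; fixed sites were 4.38%, 5.30% with none, and 4.91% to 5.57% without each cow. The ratio of transitions to transversions was 5.76 at sites read at least 20 times in every library, 3.27 where any base is silent at the last codon position and 5.71 for alleles in 2 or more cows. The X chromosome difference was 2.74 without thinning (exact sign-flip test, p = 0.0195) and 2.73 over all SNP sites, and 1.25 to 2.55 without each cow. A robust prior with a depth trend called 374 sites against 223, and 158 to 202 were called without each cow. The 20 named sites under 18 alternatives give 360 combinations. In 61 the site could not be tested, for example with 1 of 3 heterozygous cows left out, and of the other 299, 286 kept the call, 13 lost it and 0 changed direction. The 13 fell on 7 sites: gene8850 lost it in 6, gene16139 in 2, and gene26432, gene30776, gene26394, gene25222 and gene4557 in 1 each. The class differences kept their direction and side of the threshold in all alternatives run. Depth limits single shares: at 20 to 29 reads, 11.5% of heterozygous calls lay outside 30 to 70%.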
